A study of Mus with 6 samples.

Results

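Matrix metalloproteinases (MMPs), the related protease Adamts1 and the tissue inhibitors of metalloproteinases (TIMPs) were examined in lens epithelial cells (LECs) at 0 h and 6 h post cataract surgery (PCS). The 8 genes, Mmp2, Mmp3, Mmp9, Mmp14, Adamts1, Timp1, Timp2 and Timp3, were chosen by their Ensembl identifiers out of 55421 counted genes. The samples were lens capsules with attached LECs from wildtype C57BL/6 mice, given as 2 months old in the sample labels and as older in the paper's methods. Each time point had 3 libraries, each a pool of 5 capsules, and the surgery removed the fiber cell mass and left the capsule and its LECs in the eye. The 0 h capsules were harvested directly after the surgery, so they too had undergone fiber cell removal, and capsules of both time points can come from the same mice. The comparison asks which genes LECs regulate in the first hours after this injury.

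MMPs are zinc-dependent enzymes that cut collagens, laminins, proteoglycans and other proteins of the extracellular matrix, and most are secreted as inactive precursors. ADAMTS enzymes are related secreted proteases, several of which cut proteoglycans such as versican and aggrecan. TIMPs bind the active site of these enzymes and block it, and the balance of proteases and TIMPs has long been studied in wound healing and in the capsule wrinkling that follows cataract surgery.

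Between 18039974 and 24701039 read pairs per library were counted on genes. These were 33.6% of the pairs in 6 h replicate 1 and 39.5% to 41.2% in the other libraries. The most abundant gene held 23.3% of the gene counts in 6 h replicate 1 and 14.8% to 17.7% in the other libraries. Levels are given as TMM-normalized CPM, which are counts per 1000000 after the scaling of edgeR that sets most genes equal between libraries. The edgeR quasi-likelihood test compared 16810 genes that passed a filter on low counts, and a differentially expressed gene (DEG) had a Benjamini-Hochberg adjusted p no higher than 0.05 together with a change of more than 2-fold. By this rule 5.35% of all tested genes were DEGs, 4.53% higher and 0.821% lower at 6 h PCS. All single-gene adjusted p-values below are from this edgeR test over all tested genes, and since no label ties a 0 h pool to a 6 h pool, the pools were treated as independent.

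The 7 markers of lens epithelium that could be named summed to between 1753 and 1986 CPM in the 0 h libraries and to between 1546 and 1803 CPM in the 6 h libraries. Of these, Epha2 was an upregulated DEG (log2 fold change 1.21, edgeR adjusted p = 0.0134), and Prox1 (−0.75, adjusted p = 0.0119), Pitx3 (−0.86, adjusted p = 0.00777) and Sox2 (−0.70, adjusted p = 0.0151) were lower with changes under the fold limit. The 2 named fiber cell genes summed to between 1326 and 1814 CPM at 0 h and between 1170 and 1600.2 CPM at 6 h PCS, with Crygb at 253 CPM in 6 h replicate 3 and at 8.32 and 7.87 CPM in 6 h replicates 1 and 2. Other cell types were also present and differed between libraries. The 4 named pigment cell markers (Tyr, Tyrp1, Dct and Pmel) summed to between 51.4 and 209 CPM at 0 h PCS and to 77.4, 456 and 1965 CPM in 6 h replicates 1, 2 and 3. The 5 erythrocyte genes were all upregulated DEGs and summed to between 7.94 and 19.5 CPM in the 0 h libraries and to between 73.5 and 132.7 CPM in the 6 h libraries. The 7 named leukocyte genes summed to between 13.98 and 26.5 CPM in the 0 h libraries and to between 18.5 and 35.5 CPM in the 6 h libraries, and the 6 named stromal genes to between 367 and 413.7 CPM and between 292 and 366 CPM. Of the 3 named genes of surface epithelium, the keratin genes Krt12 (0.437 to 7.01 CPM at 0 h and 44.2 to 65.8 CPM at 6 h PCS) and Krt5 (0.328 to 7.70 CPM and 24.9 to 38.4 CPM) were higher in all 3 of the 6 h libraries without passing the test (edgeR adjusted p = 0.0792 and 0.146), and Aldh3a1 was lower (347 to 481 CPM and 231 to 347 CPM, adjusted p = 0.0725). The 4 named endothelial genes summed to between 4.10 and 26.3 CPM at 0 h and between 20.0 and 36.9 CPM at 6 h PCS, and Cdh5 (log2 fold change 3.33, edgeR adjusted p = 0.0529) and Pecam1 (1.98, adjusted p = 0.0644) were higher in all 3 of the 6 h libraries without passing the test. Cdh5, with 9, 5 and 2 counts in the 0 h libraries, passed the filter on low counts through the 6 h group, and the 0 h libraries alone would not have taken Krt5 or the hemoglobin gene Hbb-bt past it. The part of surface epithelium and endothelium in the levels below was not tested. None of the named markers was at 0 in all 6 libraries. In pooled tissue, fewer cells of a type and less RNA per cell cannot be told apart.

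Of the 8 genes, 7 were tested and 2 were DEGs at 6 h PCS, both of them inhibitors and both upregulated, namely Timp1 and Timp3. Among all tested genes, 5.35% were DEGs and 4.53% were upregulated DEGs. None of the 8 genes was a downregulated DEG, and Mmp3 did not pass the filter on low counts. In 5 of the 8 the 3 libraries of one time point did not overlap with those of the other, 4 of them higher at 6 h PCS (Timp1, Timp3, Adamts1 and Mmp14) and 1 lower (Timp2), while Mmp2 and Mmp9 overlapped. Non-overlapping libraries were common, as 30.6% of all tested genes had them, 15.3% in each direction.

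**Figure D1:**
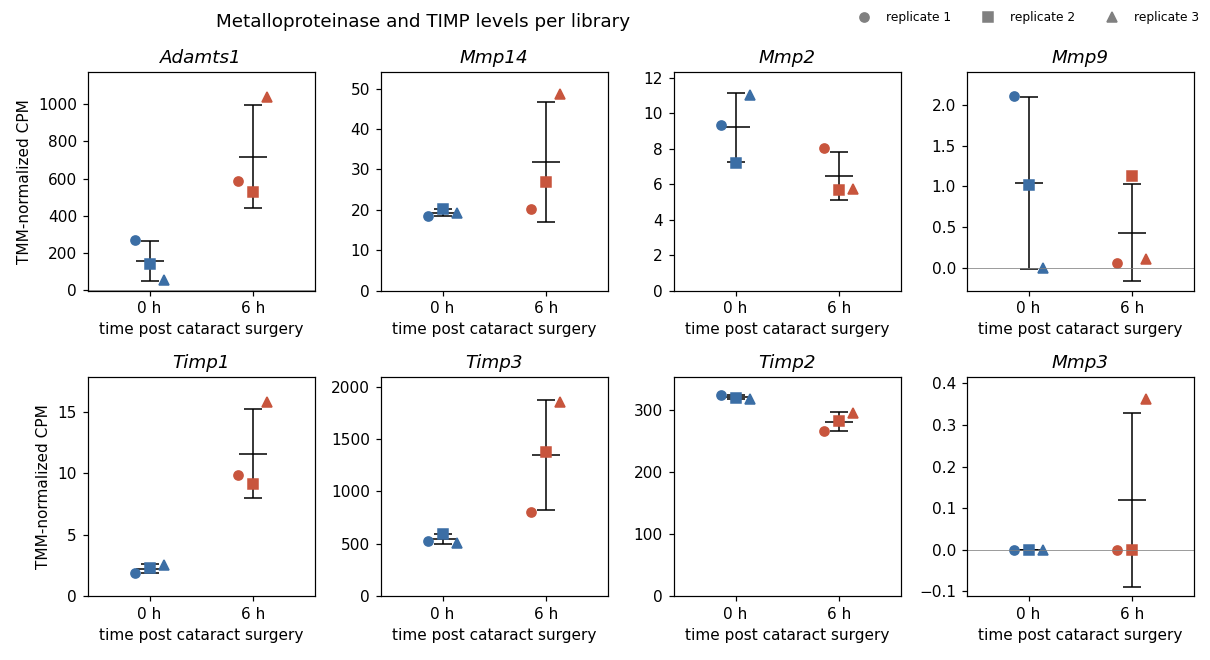
TMM-normalized CPM (linear axis, a separate scale in each panel) of the 8 genes at 0 h PCS (blue) and 6 h PCS (red), 3 libraries each, with marker shape for the replicate number and a bar for the mean ± SD. Timp1 and Timp3 lay higher at 6 h PCS in every library, Timp2 lay in a narrow band at 0 h PCS, and Mmp3 had counts in 1 library.

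Timp1 (ENSMUSG00000001131) encodes a secreted inhibitor that also binds the precursor of MMP9, and it lies on chromosome X of GRCm38 from 20870166 to 20874737. The Timp1 level was 1.85, 2.30 and 2.55 CPM in the libraries at 0 h PCS and 9.87, 9.17 and 15.8 CPM in those at 6 h PCS. Every 6 h library was far above every 0 h library, and 6 h replicate 3 was the highest. Timp1 rose from 2.23 ± 0.353 to 11.6 ± 3.67 CPM (± SD of 3 libraries), with a log2 fold change of 2.38 and a standard error of 0.318 (edgeR adjusted p = 0.00196). Its counts were small, from 43 to 63 in the 0 h libraries and from 147 to 263 in the 6 h libraries. Erythrocyte genes were higher in the same libraries, and so was 1 of the 7 leukocyte genes, the macrophage gene Cd68 (log2 fold change 2.55, edgeR adjusted p = 0.0129). The other 6 leukocyte genes did not pass the test, with log2 fold changes of 1.502 for Itgam, 1.29 for Ptprc, 0.51 for Cx3cr1, 0.10 for Adgre1, −0.11 for Csf1r and −0.16 for Lyz2 (edgeR adjusted p from 0.374 to 0.954). The part of these cells in the Timp1 level was not tested. Leaving out any 1 library left Timp1 a DEG (6 of 6 fits).

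Timp3 (ENSMUSG00000020044) encodes the TIMP that binds to the matrix itself and inhibits ADAMTS and ADAM enzymes as well as MMPs, and it lies on chromosome 10 from 86300412 to 86349505. Its level was 528, 594 and 508 CPM in the 0 h libraries and 804, 1373 and 1853 CPM in the 6 h libraries. The lowest 6 h library exceeded the highest 0 h library, but the 6 h libraries differed among themselves by a factor of 2.31. Timp3 rose from 543 ± 45.2 to 1343 ± 525 CPM (± SD of 3 libraries), with a log2 fold change of 1.31 and a standard error of 0.265 (edgeR adjusted p = 0.017). The call did not hold without 0 h replicate 1 (edgeR adjusted p = 0.0841), without 0 h replicate 3 (0.0657) or without 6 h replicate 2 (0.0713), although the log2 fold change stayed between 1.00 and 1.57 over all 6 such fits. The 1.57 came without 6 h replicate 1, the lowest 6 h library (edgeR adjusted p = 0.00075).

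In the 6 h libraries, the order of Timp3 was also the order of the pigment cell markers. The markers summed to 77.4 CPM beside 804 CPM of Timp3 in 6 h replicate 1, to 456 CPM beside 1373 CPM in 6 h replicate 2 and to 1965 CPM beside 1853 CPM in 6 h replicate 3. At 0 h PCS the orders differed. The markers summed to 209, 63.8 and 51.4 CPM beside 528, 594 and 508 CPM of Timp3 in replicates 1, 2 and 3. Without 6 h replicate 3, the log2 fold change of Timp3 was 1.00 (edgeR adjusted p = 0.0279). The part of pigment cells in the Timp3 level was not tested.

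**Figure D2:**
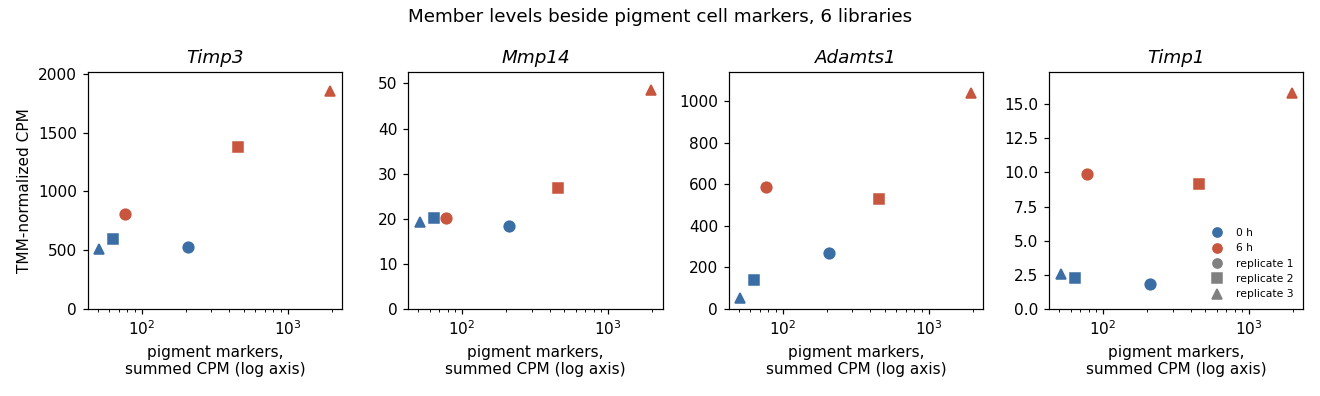
TMM-normalized CPM of Timp3, Mmp14, Adamts1 and Timp1 against the summed CPM of 4 pigment cell markers (log axis) in the 6 libraries, with 0 h PCS in blue, 6 h PCS in red and marker shape for the replicate number. All 4 genes were highest in 6 h replicate 3, the library with the most pigment marker RNA (1965 CPM), and 6 h replicate 1 (77.4 CPM) lay among the 0 h libraries on the horizontal axis.

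Timp2 (ENSMUSG00000017466) encodes an inhibitor that also forms part of the cell surface complex in which MMP14 activates the MMP2 precursor, and it lies on chromosome 11 from 118301061 to 118355411. The Timp2 level was 324, 319 and 318 CPM in the 0 h libraries and 266, 283 and 295 CPM in the 6 h libraries. The 6 h libraries were all slightly lower, and the 0 h libraries were nearly equal. The mean went from 321 ± 3.14 to 281 ± 14.7 CPM (± SD of 3 libraries), with a log2 fold change of −0.19 and a standard error of 0.124 (edgeR adjusted p = 0.406), which did not pass the test. With libraries scaled on their size alone, which moved the median of all tested genes to −0.32, the log2 fold change of Timp2 was −0.50 (edgeR adjusted p = 0.0456), still short of the fold limit.

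Adamts1 (ENSMUSG00000022893) encodes a secreted protease that cuts versican and aggrecan, and it lies on chromosome 16 from 85793827 to 85803113. Its level was 268, 139 and 54.1 CPM in the 0 h libraries and 589, 529.7 and 1038 CPM in the 6 h libraries. Every 6 h library was above every 0 h library, yet the 0 h libraries spanned a factor of 4.96. The mean was 154 ± 108 CPM in the 0 h libraries and 719 ± 278 CPM in the 6 h libraries (± SD of 3 libraries), with a log2 fold change of 2.22 and a standard error of 0.656 (edgeR adjusted p = 0.123). The difference did not pass the test, although its size was close to that of Timp1. Adamts1 became a DEG without 0 h replicate 1, the highest of its group (log2 fold change 2.89, edgeR adjusted p = 0.047), and without 0 h replicate 3, the lowest (1.81, adjusted p = 0.0455). DESeq2 (adjusted p = 0.011), the exact test of edgeR (0.00916) and the edgeR fit without robust estimation (0.031) also called it.

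Mmp14 (ENSMUSG00000000957) encodes a membrane-anchored collagenase that activates the MMP2 precursor, and it lies on chromosome 14 from 54431598 to 54442456. Its level was 18.4, 20.1 and 19.2 CPM in the 0 h libraries and 20.2, 26.8 and 48.6 CPM in the 6 h libraries. The lowest 6 h library was practically level with the highest 0 h library, and 6 h replicate 3 was far above all others. The mean went from 19.2 ± 0.871 to 31.9 ± 14.8 CPM (± SD of 3 libraries), with a log2 fold change of 0.73 and a standard error of 0.287 (edgeR adjusted p = 0.163). Without 6 h replicate 1 the log2 fold change was 0.96 (edgeR adjusted p = 0.0405), and with no low-count filter it was 0.71 (0.0102), both under the fold limit. Without 6 h replicate 3, in which the pigment markers were also highest, the log2 fold change was 0.29. The summed stromal genes of that library (366 CPM) were the highest of the 6 h libraries and just below the 0 h range. Among them Col1a1 was the highest of the 6 libraries (116 CPM) and Dcn the highest of the 6 h libraries (2.65 CPM), and Col1a2 (81.7 CPM), Pdgfra (116.5 CPM), Pdgfrb (46.2 CPM) and Postn (2.89 CPM) were the lowest of the 6 h libraries. The part of other cell types in the Mmp14 level was not tested.

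Mmp2 (ENSMUSG00000031740) encodes a gelatinase that cuts type IV collagen, the main collagen of the lens capsule, and it lies on chromosome 8 from 92827290 to 92853421. Its level was 9.34, 7.21 and 11.05 CPM in the 0 h libraries and 8.05, 5.67 and 5.72 CPM in the 6 h libraries. The groups overlapped, since 6 h replicate 1 was above 0 h replicate 2. The means were 9.20 ± 1.92 and 6.48 ± 1.36 CPM (± SD of 3 libraries), with a log2 fold change of −0.51 and a standard error of 0.276 (edgeR adjusted p = 0.311), and no alternative fit called it.

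Mmp9 (ENSMUSG00000017737) encodes the other gelatinase, which neutrophils and injured epithelia are known to release, and it lies on chromosome 2 from 164940326 to 164955850. Its counts were 49, 28 and 0 in the 0 h libraries and 1, 25 and 2 in the 6 h libraries. At both time points the gene was nearly absent from some libraries and present in others, so the groups overlapped fully. The log2 fold change of −1.19 had a standard error of 1.38 (edgeR adjusted p = 0.657), and it ran from −3.39 to −0.20 over the fits without 1 library. The spread between pools of one time point was wider than the difference between the time points.

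Mmp3 (ENSMUSG00000043613) encodes stromelysin, which cuts many matrix proteins and activates other MMP precursors, and it lies on chromosome 9 from 7445822 to 7455975. No count was found in 5 of the 6 libraries, and 6 counts (0.361 CPM) were found in 6 h replicate 3. A count of 0 allows up to 3 counts, or 0.109 to 0.201 CPM in these libraries, a limit that covers counting error only since the libraries were amplified by PCR without molecular identifiers. Mmp3 did not pass the filter on low counts, and no fold change is given.

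**Figure D3:**
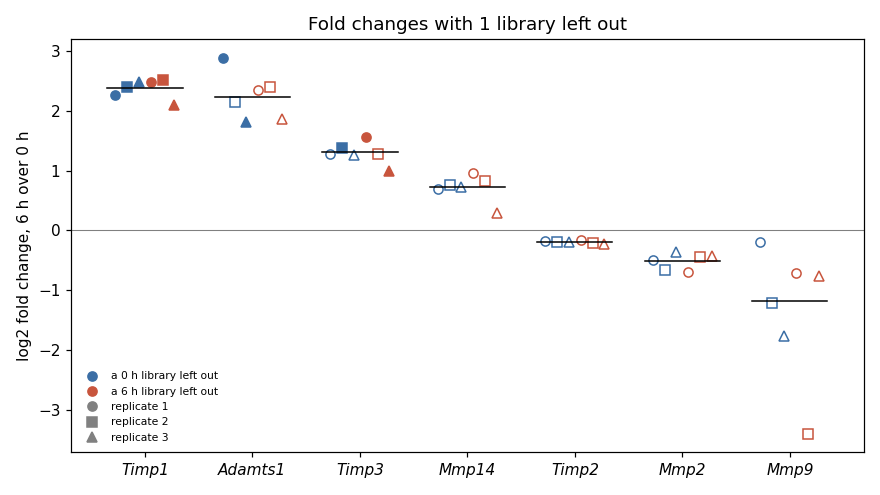
Log2 fold change (6 h over 0 h) of the 7 tested genes with 1 library left out at a time, blue for a 0 h and red for a 6 h library, with marker shape for its replicate number, filled where the gene was a DEG and open where it was not, and a black line for all 6 libraries. Timp1 was a DEG in 6 of 6 such fits, Timp3 in 3 and Adamts1 in 2.

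Exon lengths were at hand for 3 of the 8 genes, which allowed levels to be compared between them per length, as FPKM computed on the TMM-scaled library sizes. At 0 h PCS, Timp3 was the highest at 66.7 ± 5.55 FPKM (SD, n = 3), followed by Adamts1 at 29.0 ± 20.3 FPKM and Timp1 at 2.51 ± 0.397 FPKM. At 6 h PCS the order of the means was the same, with Timp3 at 164.9 ± 64.5 FPKM, Adamts1 at 135.6 ± 52.4 FPKM and Timp1 at 13.1 ± 4.13 FPKM (SD, n = 3). At 6 h PCS Timp3 and Adamts1 did not differ beyond their spread, and in 6 h replicate 1 Adamts1 was higher (111 against 98.7 FPKM). Timp1 stayed below both in every library.

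Ratios of 2 genes within a library do not depend on how libraries are scaled, and they are not corrected for gene length. They were computed for 6 pairs, and with 3 libraries a side the smallest p of a two-sided exact permutation test is 0.10. The ratio of Timp3 to Timp2 counts was 1.63, 1.86 and 1.598 in the 0 h libraries and 3.02, 4.85 and 6.27 in the 6 h libraries. It was higher in 3 of 3 libraries at 6 h PCS, by 2.67-fold on average (exact permutation p = 0.10, adjusted over the 6 ratios 0.15). Timp1 counts were 0.571%, 0.719% and 0.800% of Timp2 counts in the 0 h libraries and 3.71%, 3.24% and 5.36% in the 6 h libraries, 5.81-fold higher (exact permutation p = 0.10, adjusted 0.15). The share of Timp1 relative to Timp3 was also higher in all 3 libraries at 6 h PCS, by 2.18-fold (exact permutation p = 0.10, adjusted 0.15). In all 3 ratios of TIMPs the groups did not overlap, which gives the smallest p of this design and does not pass the threshold of 0.05.

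Among protease to inhibitor pairs, Mmp14 counts were 5.67%, 6.30% and 6.04% of Timp2 counts in the 0 h libraries and 7.59%, 9.47% and 16.4% in the 6 h libraries. The groups did not overlap and the ratio was 1.76-fold higher (exact permutation p = 0.10, adjusted 0.15). Mmp2 counts were 2.26% to 3.47% of Timp2 counts in the 0 h libraries and 1.94% to 3.03% in the 6 h libraries, a difference within the spread (exact permutation p = 0.30, adjusted 0.30). Adamts1 counts were 50.9%, 23.4% and 10.6% of Timp3 counts in the 0 h libraries and 73.3%, 38.6% and 56.0% in the 6 h libraries, and the groups overlapped (exact permutation p = 0.20, adjusted 0.24). No ratio of Mmp9 to Timp1 was computed, because Mmp9 had no count in 0 h replicate 3.

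**Figure D4:**
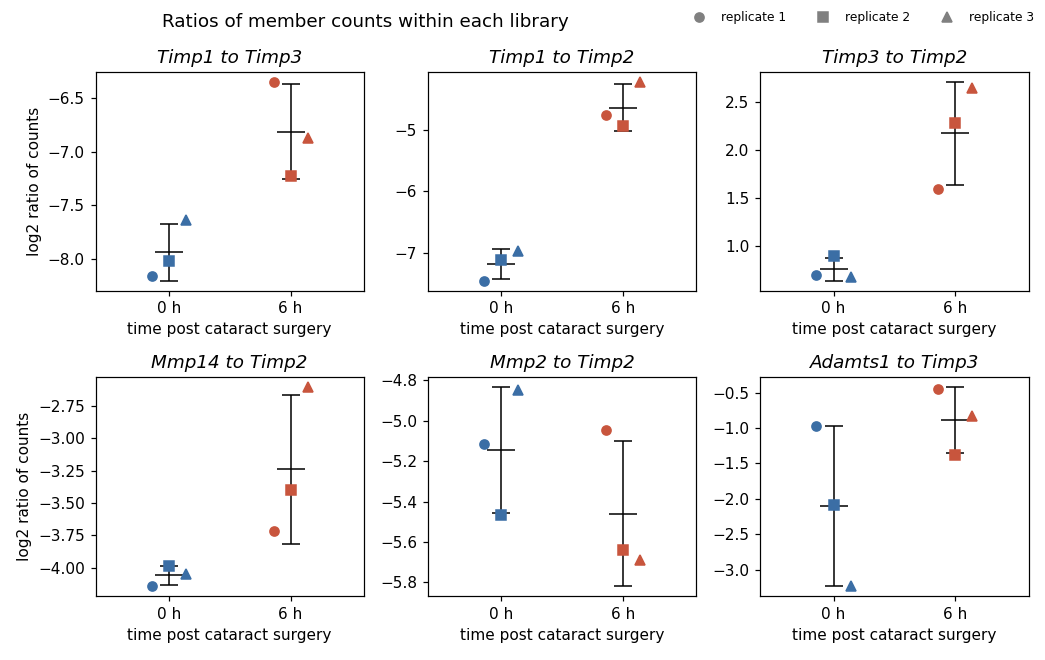
Log2 ratio of the counts of 2 genes within each library for the 6 pairs (each panel with its own scale, which does not start at 0), at 0 h PCS (blue) and 6 h PCS (red), with marker shape for the replicate number and a bar for the mean ± SD. The 2 groups were separate for Timp1 to Timp3, Timp1 to Timp2, Timp3 to Timp2 and Mmp14 to Timp2, and overlapped for Mmp2 to Timp2 and Adamts1 to Timp3.

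The other members of the protease families gave further upregulated genes, at lower levels or in the ADAMTS group. Gene names were at hand for only part of the counted genes and lean towards changed genes, so the counts below are a description. Of 19 other MMP genes, 6 could be named and 4 were tested, of which 1, Mmp10, was an upregulated DEG. Mmp10, a second stromelysin (chromosome 9, 7502342 to 7510242), had no counts at 0 h PCS and 13, 17 and 16 counts at 6 h PCS. Set against 3 counts per 0 h library, Mmp10 was at least 7.07-fold higher in the 6 h libraries (edgeR adjusted p = 0.0224). It passed the filter on low counts through the 6 h libraries alone, so it could be tested only by being higher there, and it was not tested when 10 counts were asked of every library. Of the 10 other settings run, 7 called Mmp10. DESeq2 gave it no adjusted p and did not call it. The edgeR test against a fold change of 2 did not call it either (glmTreat adjusted p = 0.0783). Mmp10 was called in 0 of the 6 fits without 1 library (adjusted p from 0.0581 to 0.0807). The remaining named MMPs, listed after their values were seen, were Mmp11 (log2 fold change −1.33, edgeR adjusted p = 0.0533, a lower DEG in 5 of the 10 other settings run, DESeq2 among them), Mmp15 (0.11, adjusted p = 0.86), Mmp19 (1.10, adjusted p = 0.16), and Mmp12 and Mmp13, which did not pass the filter on low counts. With no such filter, Mmp13 was a higher DEG and Mmp12 was not called. Mmp12 had 0, 2 and 2 counts in the 0 h libraries and 5, 9 and 12 in the 6 h libraries, and Mmp13, a collagenase, had 0, 0 and 2 counts and then 3, 6 and 34, the last in 6 h replicate 3. Mmp3, Mmp10, Mmp12 and Mmp13 are neighbours on chromosome 9, between 7272514 and 7510242, and none of them exceeded 2 counts in a 0 h library.

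Of 18 other ADAMTS genes, 9 could be named and all 9 were tested, of which 2 were upregulated DEGs and 0 were downregulated. Adamts4, an aggrecanase (chromosome 1, 171250129 to 171262267), was at 144, 65.8 and 96.1 CPM in the 0 h libraries and at 572, 272 and 405 CPM in the 6 h libraries. All 6 h libraries were above all 0 h libraries, and the log2 fold change was 2.03 with a standard error of 0.36 (edgeR adjusted p = 0.016). Adamts8 (chromosome 9, 30942562 to 30963838) rose from 0.496 ± 0.424 to 4.04 ± 2.08 CPM (± SD of 3 libraries), with a log2 fold change of 3.02 and a standard error of 0.76 (edgeR adjusted p = 0.0383). With 10, 3 and 22 counts in the 0 h libraries and 73, 37 and 92 in the 6 h libraries, it too passed the filter through the 6 h group and was not tested when 10 counts were asked of every library. Both lost the call in some fits without 1 library, with 3 of 6 fits calling Adamts4 (adjusted p of 0.0540 without 0 h replicate 3, 0.0519 without 6 h replicate 1 and 0.0767 without 6 h replicate 3) and 2 of 6 calling Adamts8 (adjusted p of 0.148 without 0 h replicate 1, 0.0695 without 0 h replicate 2, 0.0851 without 6 h replicate 1 and 0.105 without 6 h replicate 3). Over these fits the log2 fold change of Adamts8 ran from 2.53 without 0 h replicate 2 to 3.89 without 0 h replicate 3. Of the 10 other settings run, 8 called Adamts4 and 8 called Adamts8. Adamts4 was not called with no low-count filter (edgeR adjusted p = 0.0619) or by glmTreat (0.156), and Adamts8 was not called by glmTreat (0.222). Among the 7 not called, Adamts6 (log2 fold change −0.82, edgeR adjusted p = 0.173) was a lower DEG with scaling on library size alone and without 0 h replicate 2, and Adamts3 (1.046, adjusted p = 0.239) was a higher DEG in 2 of the 10 other settings. Over the 9 genes the median log2 fold change was 0.31, beside 0.00 over all tested genes.

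**Figure D5:**
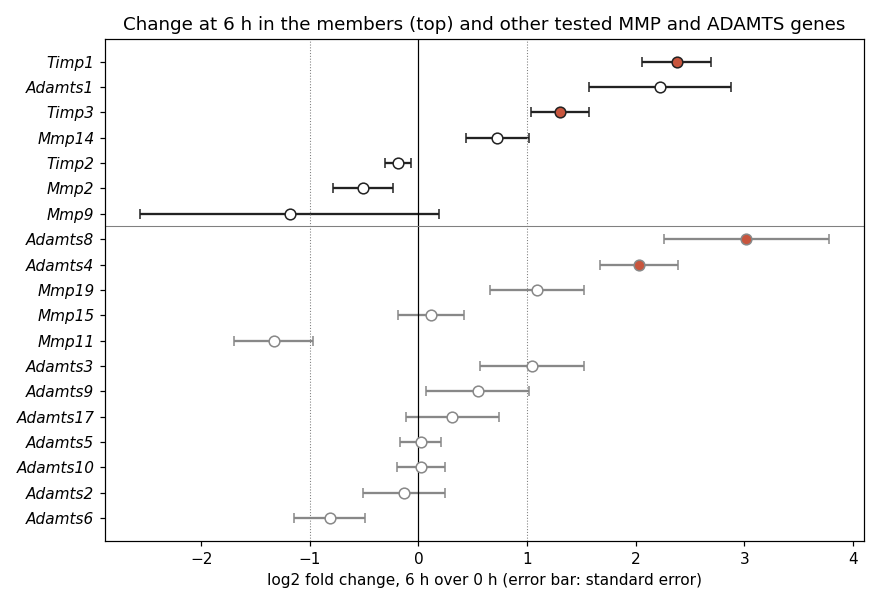
Log2 fold change (6 h over 0 h) with its standard error for the 7 tested genes (top, black) and the other tested MMP and ADAMTS genes with a name (bottom, grey), filled red where the gene was a DEG; dotted lines mark the fold limit of 2. Mmp10 is left out because it had no count at 0 h PCS; Timp1, Timp3, Adamts8 and Adamts4 are filled.

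Among genes that act on MMPs, Plat, which encodes the tissue-type plasminogen activator, rose from 55.5 ± 8.71 to 246 ± 88.1 CPM (± SD of 3 libraries), with a log2 fold change of 2.15 and a standard error of 0.26 (edgeR adjusted p = 0.00155). Of 7 genes of the activation of MMP precursors, 3 could be named and were tested. Plat was the 1 DEG of these 3, beside 5.35% DEGs among all tested genes. In all 3 the libraries of the time points did not overlap, beside 30.6% of all tested genes. Plau, the gene of the urokinase-type activator, had 78, 5 and 43 counts in the 0 h libraries and 94, 969 and 989 in the 6 h libraries, with a log2 fold change of 4.36 and a standard error of 1.26 (edgeR adjusted p = 0.123). Plaur, the gene of its receptor, had 13, 0 and 18 counts and then 58, 331 and 483, with a log2 fold change of 5.19 and a standard error of 1.19 (edgeR adjusted p = 0.0587). Neither passed the test, and of the 10 other settings run, 3 called Plau and 4 called Plaur, DESeq2 among them for both. The 0 h libraries alone would not have taken either gene past the filter on low counts, and neither was tested when 10 counts were asked of every library. Of 6 surface partners of MMPs, 5 could be named and were tested. The 1 DEG among them was the heparan sulfate proteoglycan gene Sdc4 (log2 fold change 1.22 with a standard error of 0.178, edgeR adjusted p = 0.00307). With scaling on library size alone its log2 fold change was 0.90, below the fold limit. In the same list, Itgb3 (log2 fold change 3.03, edgeR adjusted p = 0.0607) was called in 3 of the 10 other settings, DESeq2 among them, but it passed the filter through the 6 h group and was not tested when 10 counts were asked of every library. Cd44 (0.91, edgeR adjusted p = 0.0224) was under the fold limit with all libraries, but it was a higher DEG without 6 h replicate 2. Of 9 ADAM sheddases, 4 could be named and were tested, and none of these 4 was a DEG. Adam15 (0.93, edgeR adjusted p = 0.0453) was under the fold limit with all libraries, but it was a higher DEG without 6 h replicate 1. Adam12 (1.22, edgeR adjusted p = 0.0824) was called in 3 of the 10 other settings, DESeq2 among them. Of 3 other metalloproteinase inhibitors, only A2m could be named and tested. It was not a DEG (0.75, edgeR adjusted p = 0.0725), but it was a higher DEG without 0 h replicate 1.

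The substrates that could be named showed no DEG in the edgeR test. Of 17 basement membrane genes, 5 could be named and were tested (Lama5, Lamb2, Nid2, Agrn and Col18a1). Of these 5, 0 were DEGs, with a median log2 fold change of 0.40. The type IV collagen genes of the list had no name at hand and were not examined. Of 12 genes for proteoglycans and other matrix proteins, 9 could be named and were tested. Of these 9, 0 were DEGs, with a median of 0.13, and they went both ways. Dcn, the decorin gene, was at 3.43 to 6.11 CPM in the 0 h libraries and at 0.405 to 2.65 CPM in the 6 h libraries (log2 fold change −1.52, edgeR adjusted p = 0.161), and 3 of the 10 other settings called it a lower DEG. Tnc, the tenascin C gene, was at 2.11 to 6.41 CPM and then at 7.64 to 13.07 CPM (log2 fold change 1.077, edgeR adjusted p = 0.147), and 1 other setting called it a higher DEG. Vcan, the versican gene, averaged 257 ± 65.5 CPM in the 0 h libraries and 294 ± 27.3 CPM in the 6 h libraries (± SD of 3 libraries), with a log2 fold change of 0.20 and a standard error of 0.184 (edgeR adjusted p = 0.571).

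The genes whose levels over the 6 libraries were most like those of the called inhibitors were found among 6373 other named and tested genes, by the root mean square difference of log2 CPM after centring each gene. For Timp1 they were Gm6296 (difference 0.17), B4galt5 (0.18) and Tpbg (0.19), and for Timp3 they were Cpne8 (0.08), Actg1 (0.13) and Fnip2 (0.14).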

How the data were processed

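Sequencing covered 6 libraries, 3 of LECs at 0 h PCS and 3 at 6 h PCS. The authors aligned read pairs to GRCm38 with Hisat2, and HTSeq in union mode gave the number of pairs on each Ensembl gene; the deposited values are these raw counts, with 5 summary rows that were left out here. The strand setting is not given in the sources used here. Timp1 lies within Syn1 and Timp3 within Syn3, Timp2 overlaps Cep295nl and Mmp2 overlaps Gm45472, so without strand, reads of such partners cannot be told apart where exons overlap, and union mode sets reads on 2 genes aside.

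Following the paper's methods, edgeR 4.0.16 in R 4.3.3 was run with TMM scaling, its filter on low counts by group, robust dispersion and the quasi-likelihood F-test in its earlier form. The standard error is the absolute log2 fold change divided by the square root of F. The edgeR p-values set the difference between time points against the spread between pools. Since pools can share mice, they do not speak for the spread between animals. Replicate numbers were not used as pairs. Symbols (7026 of 55421 genes) and exon lengths came from the parts of the paper's supplementary gene tables that were read, and coordinates from RefSeq on GRCm38.p6. Named genes were the 8 members, every DEG of the MMP, ADAMTS and inhibitor lists, up to 4 DEGs of each other list, and the 3 nearest profiles of called members; 1 gene that this rule names is not reported here. The members and lists were chosen with earlier results of these data known. The fit was tested on simulated data. DESeq2 1.42.0 and other settings served as alternatives.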

Additional observations from a re-analysis of the deposited data

Results flagged for a closer look

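Mmp3 had 6 counts in 6 h replicate 3, above the 3 counts that a count of 0 allows, while all 0 h libraries had none. It did not pass the low-count filter and so was not in the reported test, and with no filter it was not called. The same library held the most pigment marker RNA (1965 CPM) and the most Mmp13 counts (34), and their part in the Mmp3 counts was not tested.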

How the results depend on the processing

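Of the 8 genes, 2 were DEGs with all libraries, 1 (Timp1) against a fold change of 2 (glmTreat), and between 1 and 2 with 1 library left out. Timp1 was called in each of the 10 other settings run, Timp3 in 9, not by glmTreat (adjusted p = 0.831), and Adamts1 in 3. Over all genes, 900 DEGs became 221 with glmTreat (217 higher and 4 lower) and between 553 and 877 with 1 library left out, with 510 to 742 higher (762 with all libraries) and 43 to 140 lower (138 with all libraries). Lower DEGs numbered 627 when scaled on library size alone (572 higher), 243 with DESeq2, 253 with the exact test and 257 with no low-count filter. The lowest total and the 43 came from leaving out 0 h replicate 1, and 53 lower DEGs remained without 0 h replicate 3. No member and no ratio changed direction in any setting run.

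Same-numbered libraries deviated together with r = 0.01, 0.19 and 0.13 for numbers 1, 2 and 3, so the numbers were not taken to pair the pools, although each library correlated best with its own number. With the replicate number as a block, 1050 genes were DEGs, and Timp1 (log2 fold change 2.35) and Timp3 (1.23) were the 2 members called. At this depth Mmp3 did not pass the low-count filter, and the standard error of Mmp9 (1.38) was larger than its log2 fold change (−1.19).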
